A study of Mus musculus with 4 samples.

Results

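The genes described here are 30 digestive enzyme and Reg genes of the exocrine pancreas, named by symbol and found among the 32285 genes of the count matrices. They were followed in islets, where acinar cells are a contaminant of the isolation. The question was which of them lie as free RNA in every cell class, and which, as Cela1 in delta cells, are made by endocrine cells. The set holds 5 trypsinogen genes (Prss2, 2210010C04Rik, Try4, Try5 and Try10), 3 chymotrypsinogen genes (Ctrb1, Ctrl and Ctrc) and 3 elastase genes (Cela1, Cela2a and Cela3b). It also holds the carboxypeptidase genes Cpa1 and Cpb1, the lipase genes Pnlip, Pnliprp1, Pnliprp2 and Cel, the colipase gene Clps, the amylase gene Amy2a5 and the ribonuclease gene Rnase1. The zymogen granule genes are Zg16, Sycn, Cuzd1 and Gp2, and the Reg genes are Reg1, Reg2, Reg3a, Reg3b, Reg3d and Reg3g. "Enzyme members" below means the 23 genes left when Cela1 and the 6 Reg genes are set aside.

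Acinar cells make digestive enzymes, mostly as inactive zymogens, pack them with granule proteins such as syncollin (Sycn) and GP2 (Gp2), and release them into the ducts. The bulk of an acinar cell's messenger RNA codes for these proteins, so a few broken acinar cells can release enough of it to be captured in droplets that hold other cells. Reg genes code for small secreted C-type lectin proteins that acinar and gut epithelial cells raise in injury and inflammation. Delta cells are the endocrine cells of the islet that secrete somatostatin.

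The RNA of single islet cells was sequenced (10x Chromium droplets) from female mice on the C57b6/J background. The 4 libraries, 1 each, were CCR2-DTR+/- at 6 months, WT at 6 months, CCR2-DTR+/- at 1 month and WT at 1 month, the WT animals being littermates without the transgene (CCR2-DTR-/-). The transgene puts the receptor for diphtheria toxin on cells that express the chemokine receptor CCR2, chiefly monocytes and their progeny. All animals, WT included, had received diphtheria toxin in 4 injections 48 hours apart from postnatal day 2, so each library shows the state weeks to months after the toxin. Each library pooled islets of 2 to 3 females, prepared with collagenase, a density gradient and picking by hand, and a difference between libraries cannot be told apart from one between isolations.

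The files list 7113, 5089, 12444 and 10433 cell barcodes in that order, with 81917159, 60315217, 96744006 and 121292320 UMIs (unique molecular identifiers, 1 per captured RNA molecule). After filtering and removal of predicted doublets, 4252, 3633, 8599 and 8736 cells remained. Cells were clustered without the members, and the classes used were delta-like, alpha-like, beta-like, macrophage-like, mesenchymal-like and endothelial-like, together with a cluster led by Ppy that too few markers set apart to be given a name. Barcodes with at least 20% of UMIs from the enzyme members are called enzyme-rich, and the 10 that passed the filters were left out of these classes and are described by themselves. Among 34959 distinct barcodes, 120 occurred in more than 1 library. In delta-like cells Sst reached 80770 to 88800 CPM (counts scaled to a common library total) over the libraries. Gcg, the glucagon gene of alpha cells, also stood at 42910 to 63810 CPM there, Ppy at 26150 to 35700 and Ins1, an insulin gene, at 6927 to 8269. The source of this other hormone RNA was not tested. Intervals are 95% and cover counting error only.

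Enzyme RNA was found in every class, and its level differed more between libraries than between classes. In the CCR2-DTR 6-month library the 23 enzyme members together had 4.53 UMIs per mesenchymal-like cell, the lowest class, and 6.28 per macrophage-like cell, the highest. Classes ranged over 0.621 to 1.13 UMIs per cell at 6 months in WT, over 1.85 to 4.29 at 1 month in CCR2-DTR and over 0.0822 to 0.557 at 1 month in WT. Macrophage-like cells were highest in all 4 libraries. In the CCR2-DTR 6-month library the classes' median total was 4412 to 28420 UMIs per cell, a 6.44-fold range in depth, where enzyme UMIs per cell ranged 1.39-fold. At 6 months in WT the depth ranged 6.21-fold and the enzyme UMIs 1.82-fold, and at 1 month in CCR2-DTR 4.14-fold and 2.33-fold. At 1 month in WT the ranges were about as wide, 6.54-fold in depth and 6.78-fold in enzyme UMIs.

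In the CCR2-DTR 6-month library the deepest cells did not have the most enzyme UMIs. There, beta-like cells had 5.67 enzyme UMIs per cell (interval 5.53 to 5.81) at a median of 28420 UMIs. Endothelial-like cells had 6.02 (5.77 to 6.27) at a median of 5534 UMIs, and a cluster of low UMI count had 6.19 (5.99 to 6.38) at a median of 1978 UMIs. An enzyme UMI was present in 91.2% to 99.4% of the cells of each class of this library, against 37.9% to 54.7% in the WT 6-month library. The 1-month shares were 72.6% to 83.4% for CCR2-DTR, against 7.58% to 15.4% for WT. In CPM the classes did differ, by 4.71, 6.38, 4.53 and 13.3 times between lowest and highest in the CCR2-DTR 6-month, WT 6-month, CCR2-DTR 1-month and WT 1-month libraries. Levels are given per cell below.

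**Figure D1:**
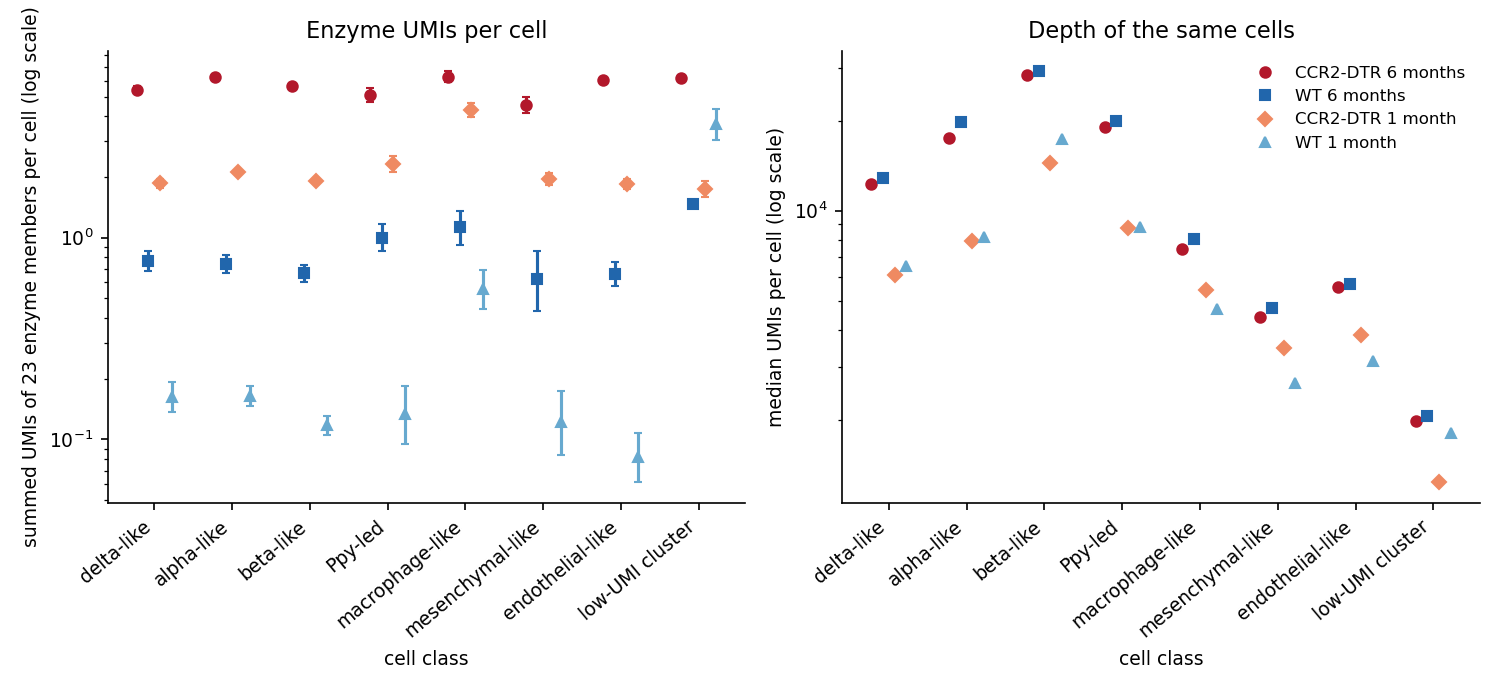
Left, summed UMIs of the 23 enzyme members per cell (log scale) in each class and library, with exact Poisson 95% intervals, and right, median UMIs per cell (log scale) of the same cells. Within the CCR2-DTR 6-month library the classes lie between 4.53 and 6.28 enzyme UMIs per cell while their depth spans 6.44-fold, and the libraries stand in the same order in each of the 7 classes.

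The distribution over cells was broad for most classes and narrow for a few. In the CCR2-DTR 6-month library the median was 4 enzyme UMIs per cell in each of the 7 classes. Of all enzyme UMIs, the 5 richest cells held 13.3% in its beta-like cells and 21.6% in its endothelial-like cells. In the WT 1-month library the median was 0 in each class, and the 5 richest macrophage-like cells held 53.0% of that class's 83 enzyme UMIs. In the low-UMI cluster of the WT 6-month library, 5 of 1019 cells held 56.3% of 1497 enzyme UMIs.

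Each member was then set against endothelial-like cells, a class with no known exocrine function, as UMIs per cell in each of the 6 other classes and 4 libraries, 24 pairs per member. A member was counted as uniform where each pair lay within 2-fold of the endothelial-like value or had an interval that includes equality. Pairs without counts did not bar a member. By this rule 14 of the 30 were uniform. Of these, 5 are among the 20 members with at least 100 UMIs over all classes, namely Cpb1, Cel, Sycn, Reg1 and Reg2. Reg2, with 120 UMIs, had no counts in 10 of its 24 pairs. The other 9 had under 100 UMIs, where wide intervals and pairs without counts make the rule easy to meet: Pnliprp2 had 69, Try10 43, Reg3b 41, Cuzd1 40, Ctrc 18, Reg3d 17, Amy2a5 10, and Reg3a and Reg3g 2 each. Amy2a5 had no counts in 18 pairs, and Reg3a and Reg3g had none in 22 each. Cel (carboxyl ester lipase, 372 UMIs), Sycn (871) and Reg1 (1647) had counts in all 24 pairs and were within the limits in each.

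The 16 members outside the limits were so in 43 pairs in all, of which 19 were pairs with macrophage-like cells, each of them higher, and 8 were pairs of Cela1. Besides Cela1, the members outside had 1 to 5 such pairs each. Ctrb1, which codes for chymotrypsinogen B and was the most abundant of the enzyme members with 6167 UMIs, was outside in 1 pair, macrophage-like cells of the WT 1-month library. Cela3b, an elastase gene with 1906 UMIs, was outside in 1 pair, macrophage-like cells of the CCR2-DTR 1-month library. Cela1 was outside in 8 pairs, and in delta-like cells of all 4 libraries. Relative to the other enzyme members, it was the 1 member of 30 that reached at least 3 times the endothelial-like value in the same class in all 4 libraries. Cela1 was named beforehand for delta cells, so this is a description.

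The summed counts of each class and library were also tested with edgeR's quasi-likelihood test, library as block, on 18580 genes. Of the 30 members 28 had the 10 UMIs required, and Reg3a and Reg3g did not. Against endothelial-like cells, 1 of 28 members (Cela1) was higher in delta-like cells, where 29.9% of all genes tested were called higher, and 18 were lower, where 32.5% of all genes were. In alpha-like cells 0 were higher and 17 lower, against 30.3% and 32.6% of all genes. In beta-like cells 0 were higher and 20 lower, against 29.8% and 34.1%, and in the Ppy-led cluster 0 were higher and 12 lower, against 25% and 30.9%. At an unadjusted p under 0.05 the numbers higher remained 0 in alpha-like, beta-like and Ppy-led cells.

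The lower calls in endocrine classes depend on the scale. The test scales to total RNA, and endocrine cells hold more of it: the members' median log2 fold change was -1.13 in delta-like, -0.83 in alpha-like and -1.22 in beta-like cells, against 0.03, 0.03 and 0.02 for all genes. Scaled to the summed enzyme members instead, no member was lower in any class, which is largely fixed, since the members tested set that scale. The calls on it were Cela1 higher in delta-like cells and Clps higher in macrophage-like cells. In mesenchymal-like cells, which are close to endothelial-like cells in depth, 0 of 28 members were higher and 0 lower (0 higher at an unadjusted p under 0.05 too), against 17.8% and 20.4% of all genes. DESeq2 likewise called 0 members higher in alpha-like, beta-like, Ppy-led and mesenchymal-like cells.

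**Figure D2:**
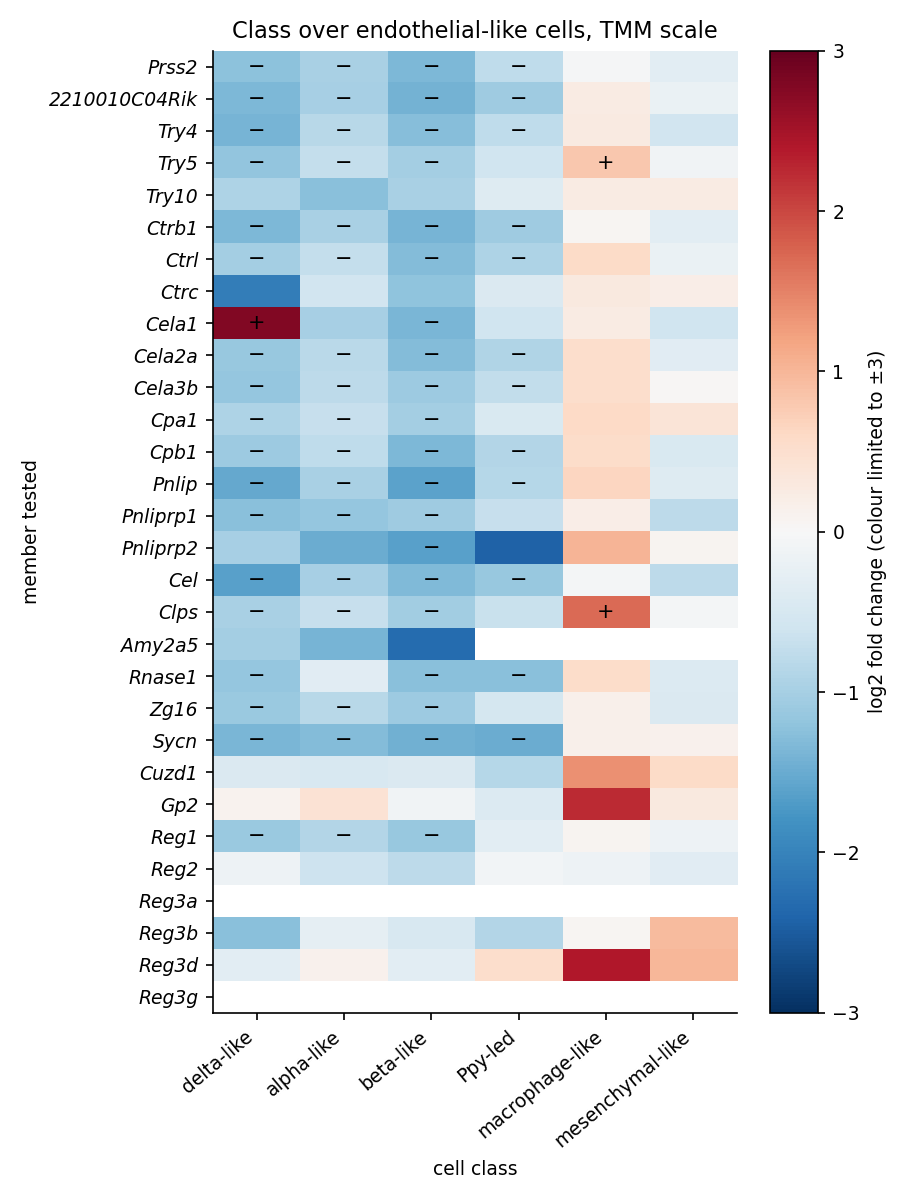
Log2 fold change of each member in 6 classes over endothelial-like cells (edgeR, TMM scale, library as block), with + for a higher and − for a lower call at an adjusted p under 0.05. Blank cells had under 10 UMIs in all or no UMI in 1 of the classes compared. Cela1 is the 1 member higher in delta-like cells, Try5 and Clps are higher in macrophage-like cells, and the lower calls lie in the 4 endocrine columns.

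Cela1 codes for an elastase-type serine protease. In rodents, unlike in humans, it is a main elastase of pancreatic juice. In delta-like cells it had 1003 UMIs in 420 cells of the CCR2-DTR 6-month library, 1211 in 410 of the WT 6-month library, 1234 in 825 of the CCR2-DTR 1-month library and 1161 in 873 of the WT 1-month library. In endothelial-like cells it had 176 UMIs in 364 cells, 22 in 315, 111 in 656 and 12 in 633 in the same order of libraries. The delta-like cells were thus far above in each library, and the endothelial-like level moved with the other enzymes.

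Per cell, delta-like cells had 2.39 Cela1 UMIs (2.24 to 2.54) in the CCR2-DTR 6-month library, 2.95 (2.79 to 3.13) in the WT 6-month library, 1.496 (1.41 to 1.58) in the CCR2-DTR 1-month library and 1.33 (1.25 to 1.41) in the WT 1-month library. Less the endothelial-like level of the same library, the differences were 1.91, 2.88, 1.33 and 1.31 UMIs per cell. The ratio of delta-like to endothelial-like cells was 4.94 (4.20 to 5.83), 42.3 (27.8 to 67.7), 8.84 (7.28 to 10.8) and 70.2 (40.01 to 136). The ratio was widest in the WT libraries, whose endothelial-like levels were lowest. The edgeR log2 fold change over the 4 libraries was 2.77, and it is given as a description since the gene was named for this pattern.

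Cela1 was not raised in the same way in the other endocrine classes. Alpha-like cells had 317, 42, 395 and 16 Cela1 UMIs in the CCR2-DTR 6-month, WT 6-month, CCR2-DTR 1-month and WT 1-month libraries, and the ratio to endothelial-like cells was 0.980, 1.21, 1.17 and 0.468. Beta-like cells had 498, 45, 421 and 21 UMIs and ratios of 0.934, 1.11, 1.09 and 0.380, the last with an interval of 0.178 to 0.847, below equality. The Ppy-led cluster reached 2.12 times (1.15 to 3.94) in the WT 6-month library and 3.99 times (1.89 to 8.84) in the WT 1-month library, where 90.9% of its 22 UMIs lay in 1 cell of 291.

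Cela1 RNA was spread over many delta-like cells. At 6 months a Cela1 UMI was found in 62.6% of CCR2-DTR and 51.5% of WT delta-like cells, and at 1 month in 49.0% of CCR2-DTR and 39.0% of WT ones, at median depths of 12290, 12810, 6080 and 6534 UMIs. The shares in endothelial-like cells were 32.7%, 6.67%, 14.5% and 1.42%, at median depths of 5534, 5692, 3828 and 3134 UMIs. With each cell thinned to 2000 UMIs, which kept 413, 408, 813 and 867 delta-like and 328, 293, 607 and 536 endothelial-like cells, the shares were 21.3%, 24.8%, 24.5% and 21.0% in delta-like cells. They were 14.3%, 3.75%, 6.10% and 0.746% in endothelial-like cells. At equal depth the delta-like share was therefore close to the same in the 4 libraries while the endothelial-like share was not. The 5 richest delta-like cells held 7.24% to 10.1% of the Cela1 UMIs of their library.

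Delta-like cells without any UMI of another enzyme carried Cela1 as well. In WT at 1 month, 775 of 873 delta-like cells had no UMI of the 23 enzyme members. Per cell with and without an enzyme UMI, Cela1 stood at 1.38 and 1.32 UMIs there, and at 2.97 and 2.94 in WT at 6 months. For CCR2-DTR the means were 2.41 and 1.94 (16 cells without) at 6 months, and 1.56 and 1.30 at 1 month. The means lay close together in the WT libraries and were somewhat higher with an enzyme UMI in the CCR2-DTR libraries. The class joined a cluster led by Sst and a deeper one led by Ghrl, the ghrelin gene. Sst-led and Ghrl-led cells had 2.31 and 2.65 Cela1 UMIs per cell in CCR2-DTR at 6 months, 2.99 and 2.81 in WT at 6 months, 1.46 and 1.67 in CCR2-DTR at 1 month, and 1.33 and 1.34 in WT at 1 month. Per total RNA it was lower in Ghrl-led cells in each library: Sst-led and Ghrl-led cells stood at 189.8 and 75.2 CPM in CCR2-DTR and 233.6 and 75.1 CPM in WT at 6 months, and at 236.2 and 110.8 CPM in CCR2-DTR and 197.1 and 72.7 CPM in WT at 1 month. With the Ghrl-led cluster left out, Cela1 remained the 1 member higher in delta-like cells, again as a description.

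**Figure D3:**
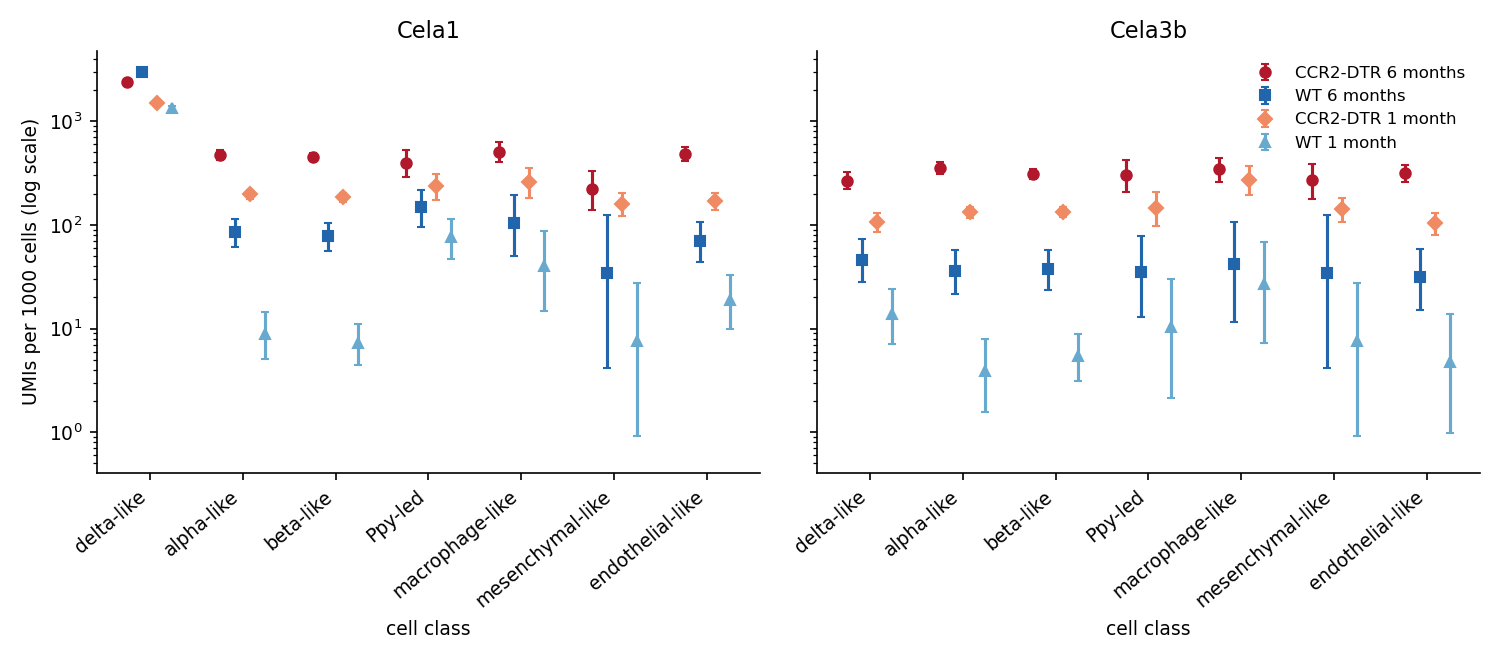
UMIs per 1000 cells (log scale) of Cela1, left, and of Cela3b, right, in 7 classes and 4 libraries, with exact Poisson 95% intervals. Cela1 stands at 1330 to 2954 UMIs per 1000 delta-like cells in all libraries and varies with the library in the other classes, whereas Cela3b follows the library in every class, delta-like cells included.

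The elastase promoters are shown because the 3 genes code for enzymes of one kind and differ in delta-like cells. In acinar cells such genes are driven by PTF1, a complex that binds a split site made of an E-box (CACCTG) and a TC-box (TTTCCC) about 1 turn of DNA apart. The sequences are from RefSeq on build GRCm38.p6, 250 bases before to 50 after the start site, 5′ to 3′ on the gene's strand. Capitals mark the E-box, the TC-box, the TATA box (TATAAA) and a homeodomain core (TAATTA) on either strand, so that an E-box of the other strand reads CAGGTG and a TC-box of the other strand reads GGGAAA. Cela1 lies at chr15:100687871-100688170, Cela2a at chr4:141825956-141826255 and Cela3b at chr4:137430471-137430770, all on the minus strand.
Cela1: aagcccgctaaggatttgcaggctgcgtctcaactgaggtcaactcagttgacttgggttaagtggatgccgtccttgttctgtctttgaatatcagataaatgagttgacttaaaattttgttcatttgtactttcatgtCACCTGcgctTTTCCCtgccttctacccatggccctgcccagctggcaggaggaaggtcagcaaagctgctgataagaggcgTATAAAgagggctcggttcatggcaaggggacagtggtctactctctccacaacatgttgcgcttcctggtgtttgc
Cela2a: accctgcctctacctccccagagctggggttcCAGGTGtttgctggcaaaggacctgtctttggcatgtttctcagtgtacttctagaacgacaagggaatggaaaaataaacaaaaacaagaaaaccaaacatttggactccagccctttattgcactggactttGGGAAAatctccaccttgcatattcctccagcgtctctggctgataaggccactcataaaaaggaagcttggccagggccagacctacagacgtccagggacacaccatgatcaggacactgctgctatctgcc
Cela3b: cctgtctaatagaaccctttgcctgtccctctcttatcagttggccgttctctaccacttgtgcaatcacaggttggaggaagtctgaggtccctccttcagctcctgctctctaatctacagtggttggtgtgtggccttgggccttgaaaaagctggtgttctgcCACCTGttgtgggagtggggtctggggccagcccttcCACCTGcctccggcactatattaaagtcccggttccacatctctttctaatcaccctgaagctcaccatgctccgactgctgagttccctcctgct

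In the Cela1 promoter the E-box began 109 bases and the TC-box 99 bases before the start site, on the same strand with 4 bases between them, and a TATA box began 27 bases before the start site. An E-box and a TC-box on 1 strand with 4 bases between them, looked for after the positions were seen, occurred in 1 of the 25 member promoters matched by symbol and in 5 of all 32851 promoters of the table (0.0152%). The 1 member is Cela1 itself, which is also among the 5. Since the spacing was taken from its promoter, that match was fixed in advance. Other spacings were not looked for. Singly, CACCTG was in 14 of the 25 member promoters (20.2% of all promoters), TTTCCC in 11 (25.2%), TATAAA in 12 (13.6%) and the homeodomain core TAATTA in 1 (5.29%). Cela2a held 1 E-box and 1 TC-box, 218 and 84 bases before the start site, and Cela3b held 2 E-boxes and no TC-box. These are matches of letters and do not show binding.

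Other acinar genes were read from a list of 25 symbols, of which 17 could be tested. Ptf1a and Rbpjl, both in the list, were not among the 17. Bhlha15, a transcription factor gene of secretory cells, was higher than in endothelial-like cells in delta-like cells (log2 fold change 1.04, edgeR adjusted p = 0.000788), and also in alpha-like, beta-like and Ppy-led cells. Gatm, a gene of creatine synthesis, was higher in delta-like cells (2.68, edgeR adjusted p = 3.15e-11), and also in alpha-like, beta-like and macrophage-like cells. In delta-like cells 6 genes of the list were lower, among them Klk1, a kallikrein gene, and Tff2, a trefoil factor gene. The list gave 3 higher and 2 lower in alpha-like cells, 4 and 4 in beta-like cells, 3 and 1 in the Ppy-led cluster, 3 and 1 in macrophage-like cells and 2 and 1 in mesenchymal-like cells. Pla2g1b, a phospholipase gene, was higher in the Ppy-led cluster (2.47, edgeR adjusted p = 0.000175) and in macrophage-like cells (1.81), and lower in beta-like cells (-1.65). Amy1, an amylase gene, was higher in the Ppy-led cluster (3.33, edgeR adjusted p = 0.00409) and in alpha-like cells (2.25, edgeR adjusted p = 0.0408). Of all genes tested, 25% to 30.3% were higher and 30.9% to 34.1% lower in delta-like, alpha-like, beta-like and Ppy-led cells. The shares were 18.8% and 23% in macrophage-like cells and 17.8% and 20.4% in mesenchymal-like cells.

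Of 14 ductal genes, used as marks of epithelium, 10 were higher and 2 lower in delta-like cells, against 29.9% and 32.5% of all genes. The counts were 8 and 2 in alpha-like cells (30.3% and 32.6% of all genes) and 6 and 2 in beta-like cells (29.8% and 34.1%). They were 8 and 2 in the Ppy-led cluster (25% and 30.9%) and 7 and 1 in mesenchymal-like cells (17.8% and 20.4%). In macrophage-like cells 5 were higher and 2 lower, against 18.8% and 23%. Krt8, Krt18 and Epcam were among the higher ones in all 6 classes. Of 10 genes for Reg receptors and for the cytokine signals that induce Reg genes, 8 were tested. In each of delta-like, alpha-like, beta-like and Ppy-led cells 1 of them, Il6ra, was higher and 7 were lower. Of all genes, 25% to 30.3% were higher and 30.9% to 34.1% lower in these classes. In macrophage-like cells 4 were higher and 3 lower, against 18.8% and 23% of all genes. In mesenchymal-like cells 1 was higher and 5 were lower, against 17.8% and 20.4%. Il6ra was among the higher ones in both. Extl3, proposed as a Reg receptor, was among the 7 lower ones and was higher in macrophage-like cells.

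In macrophage-like cells 2 of 28 members were higher and 0 lower than in endothelial-like cells, against 18.8% and 23% of all genes. Clps, the gene of colipase, which anchors pancreatic lipase to fat, had 91 UMIs in 163 macrophage-like cells of the CCR2-DTR 6-month library, 14 in 95 of the WT 6-month library, 111 in 151 of the CCR2-DTR 1-month library and 20 in 149 of the WT 1-month library. Endothelial-like cells had 150 in 364, 17 in 315, 53 in 656 and 2 in 633. Clps stood higher per cell in all 4 libraries, 1.36, 2.73, 9.10 and 42.5 times, and its edgeR log2 fold change was 1.70 (adjusted p = 6.57e-05). The 5 richest macrophage-like cells held 24.2%, 71.4%, 41.4% and 75.0% of its UMIs.

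Try5, a trypsinogen gene, had 59, 3, 34 and 9 UMIs in the macrophage-like cells of the CCR2-DTR 6-month, WT 6-month, CCR2-DTR 1-month and WT 1-month libraries, and 102, 8, 43 and 8 in endothelial-like cells. It was higher in macrophage-like cells by 0.80 on the log2 scale (edgeR, adjusted p = 0.0184). The call rests on the CCR2-DTR 1-month library, without which the log2 fold change was 0.52 and not called, and it was lost (0.21) on the scale of the summed enzyme members. The 26 other members tested were not called, among them Gp2, a granule membrane gene (log2 fold change 2.23, edgeR adjusted p = 0.0836), and Pnlip, the pancreatic lipase gene (0.65, edgeR adjusted p = 0.0917). Without the CCR2-DTR 6-month library 7 members were higher in macrophage-like cells, namely Try4, Try5, Ctrl, Cela3b, Cpa1, Pnlip and Clps. Relative to the other enzyme members Clps was at 1.33, 1.69, 4.52 and 7.94 times its endothelial-like value in macrophage-like cells of the 4 libraries.

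Besides Cela1, 7 members were above the limits in an endocrine class, each in 1 or 2 libraries. They were Rnase1 and Zg16, described below, and 5 others. Clps, at 1 month in WT, had 19 UMIs in delta-like and 24 in alpha-like cells, against 2 in endothelial-like cells, 6.89 (1.66 to 61.0) and 4.21 (1.05 to 36.7) times per cell. The trypsinogen gene 2210010C04Rik had 10 and 21 UMIs in the same cells, against 1 in endothelial-like cells, 7.25 (1.03 to 315) and 7.37 (1.18 to 305) times. In the Ppy-led cluster of the WT 6-month library Prss2 had 27 UMIs, against 18 in endothelial-like cells, 2.80 times (1.48 to 5.39), and Try5 had 14 against 8, 3.26 times (1.28 to 8.97). Of the 169 enzyme UMIs in the 169 cells of that cluster, 1 cell held 34 and the 5 richest held 41.4%. Cpa1, a carboxypeptidase gene, was at 2.92 times (1.05 to 10.0) in delta-like cells of WT at 6 months, with 19 UMIs against 5, and at 2.44 times (1.46 to 4.03) in Ppy-led cells of CCR2-DTR at 1 month, with 30 against 39. None of these 5 was called higher in an endocrine class by edgeR.

 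Rnase1, the gene of pancreatic ribonuclease, which endothelium of many tissues also makes in humans, had 47 UMIs in 497 alpha-like cells of the WT 6-month library, against 6 in 315 endothelial-like cells, 4.97 times (2.12 to 14.2). In the other 3 libraries its alpha-like ratio was 1.28 (CCR2-DTR 6-month), 1.32 (CCR2-DTR 1-month) and 2.46 (WT 1-month), with intervals that include equality. Macrophage-like cells were outside the limits too, at 4.42 times (1.35 to 15.5) in WT at 6 months, and at 2.39 times (1.35 to 4.12) in CCR2-DTR at 1 month. A further unnamed cluster, led by Gcg and Ppy, gave 4.63 (1.86 to 13.8) in the WT 6-month library. Rnase1 was called higher in alpha-like cells where the test was scaled per cell, and not on the TMM scale.

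Zg16 codes for a lectin of zymogen granules that goblet cells of the gut also make. In the WT 1-month library it had 76 UMIs in 2917 beta-like cells, 39 in 1805 alpha-like cells and 13 in 291 cells of the Ppy-led cluster, but 4 in 633 endothelial-like, 1 in 261 mesenchymal-like and 0 in 149 macrophage-like cells. The ratios to endothelial-like cells were 4.12 (1.55 to 15.5), 3.42 (1.23 to 13.2) and 7.07 (2.18 to 29.8), beta-like, alpha-like and Ppy-led in that order, and the 76 beta-like UMIs lay in 71 cells. The 4 barcodes of this library with very high Zg16 that are described next were left out of these counts. In the CCR2-DTR 6-month, WT 6-month and CCR2-DTR 1-month libraries the beta-like ratio was 0.995, 0.883 and 0.875.

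Enzyme-rich barcodes were few among the cells that passed the filters. There were 0 for CCR2-DTR and 2 for WT at 6 months, 1 for CCR2-DTR and 7 for WT at 1 month, and no cluster was acinar-like. The 10 barcodes were of 3 kinds. In 3 (2 of the WT 6-month library and 1 of the WT 1-month library), 61.8% to 69.5% of UMIs were enzyme UMIs, led by Ctrb1, with Tff2 among their other leading genes. The pair of the WT 6-month library clustered with beta-like cells and the third with macrophage-like cells. In 3 others (1 of the CCR2-DTR 1-month and 2 of the WT 1-month library), 32.4% to 40.3% were, led by Try5 with Prss2 and Ctrb1, and Zg16 was at 0. These 3 clustered with ductal-like cells. Nupr1, a stress response gene, stood among their other leading genes, and also among those of a WT 6-month barcode of the first kind.

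The third kind was made of 4 barcodes of the WT 1-month library in which Zg16 alone held 20.8% to 35.1% of UMIs. The other enzyme members held 0.0657% to 0.190% there, and the leading other genes were Tff3 and Fcgbp in all 4, with Clca1 in 3 and Muc2 in 2, which are genes of mucus-secreting goblet cells. Of the 4, 3 clustered with ductal-like and 1 with delta-like cells, and in the last Sst was also among the leading genes. Just below the limit, 3 barcodes of the CCR2-DTR 6-month library and 7 of the WT 1-month library lay between 10% and 20%.

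Over the 10 barcodes the members with most UMIs were Zg16 (15362 UMIs, 11.3% of all UMIs), Ctrb1 (9090, 6.68%), Prss2 (6714, 4.93%), Try5 (6363, 4.67%), 2210010C04Rik (3324, 2.44%) and Clps (3291, 2.42%). Cela1 was eighth with 3080 UMIs (2.26%). The first place of Zg16 comes from the 4 barcodes of the third kind. In the 6 barcodes that pass 20% without Zg16, Ctrb1 led with 10.7% of all UMIs, before Prss2 (7.91%), Try5 (7.497%), 2210010C04Rik (3.92%), Try4 (3.83%) and Clps (3.80%). Cela1 was seventh there with 3.63%, and Zg16 stood at 1.42% with 1203 UMIs.

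In the classes, Prss2, the gene of anionic trypsinogen, had 227, 30, 166 and 17 UMIs in delta-like cells of the CCR2-DTR 6-month, WT 6-month, CCR2-DTR 1-month and WT 1-month libraries, against 226, 18, 128 and 9 in endothelial-like cells. Its delta-like ratios per cell were 0.871, 1.28, 1.03 and 1.37. It was outside the limits in Ppy-led and macrophage-like cells of WT at 6 months, in macrophage-like cells at 2.40 times (1.08 to 5.17). The other trypsinogen gene, 2210010C04Rik, had 197, 23, 151 and 10 UMIs in delta-like cells in the same order, against 216, 19, 123 and 1 in endothelial-like cells. Its delta-like ratios were 0.790, 0.930, 0.976 and 7.25, close to equality except at 1 month in WT, where macrophage-like cells stood at 21.2 times (2.38 to 1005) with 5 UMIs. Ctrb1 had 399, 53, 322 and 16 UMIs in delta-like cells, at ratios of 0.894, 0.702, 0.959 and 1.66.

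Barcodes outside the filters were more numerous. Of all barcodes listed, those outside the filters included, 47, 4, 1 and 8 had at least 20% enzyme UMIs in the CCR2-DTR 6-month, WT 6-month, CCR2-DTR 1-month and WT 1-month libraries. Without Zg16 in the sum there were 46, 3, 1 and 4. The 47 of the CCR2-DTR 6-month library had a median of 927 UMIs and 238 genes, and all 47 were under the limit of 500 genes. Markers of beta cells held a median of 33.7% of the UMIs in the 46 that pass 20% without Zg16.

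**Figure D4:**
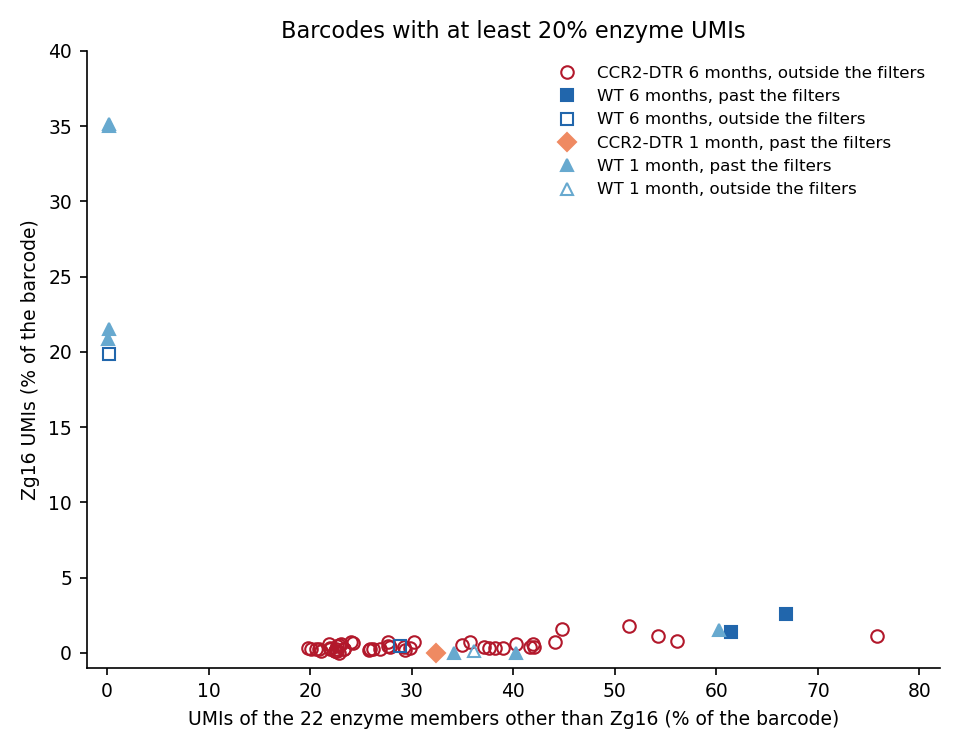
Share of UMIs from Zg16 (vertical, %) and from the other 22 enzyme members (horizontal, %) in the 60 listed barcodes with at least 20% enzyme UMIs, filled where past the filters. A group of WT barcodes lies near 0% on the horizontal axis with about 20% to 35% Zg16, and the 47 barcodes of the CCR2-DTR 6-month library, all outside the filters, lie along the bottom.

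The enzyme RNA in these barcodes and that in the classes had similar makeup in most libraries. Across the 30 members, the rank correlation (Spearman's rho) between UMIs in enzyme-rich barcodes, Zg16 not counted in the 20%, and UMIs in 6 classes without delta-like cells was 0.92 at 6 months in CCR2-DTR (46 barcodes) and 0.95 at 6 months in WT (3). At 1 month it was 0.62 in CCR2-DTR (1 barcode) and 0.85 in WT (4). The genes share a library and are not independent, so this is a description. In the CCR2-DTR 6-month library Ctrb1 made up 17.1% of the members' UMIs in enzyme-rich barcodes and 15.7% in the 6 classes, and Prss2 8.50% and 8.87%. Clps differed most among these, with 1.80% in the enzyme-rich barcodes and 7.35% in the classes.

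The ductal-like cluster held the most enzyme RNA per cell, in few cells. Of its 44 cells in the WT 1-month library, 6 held 8811 Try5 UMIs and 8 held 5021 Prss2 UMIs, with 4570 of the Try5 UMIs in 1 cell. In CCR2-DTR, Try5 had 711 UMIs in 5 of 14 ductal-like cells at 6 months, and 589 in 5 of 50 at 1 month. In the WT 6-month library, with 6 ductal-like cells, all enzyme members together had 4 UMIs.

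Reg3b and Reg3g lay mostly in this cluster. In the WT 1-month library the ductal-like cells held 2319 Reg1 UMIs in 16 cells, 218 Reg3b UMIs in 12 and 53 Reg3g UMIs in 10, while all 7 classes of the 4 libraries together held 41 Reg3b and 2 Reg3g UMIs. The CCR2-DTR 6-month ductal-like cells held 282 Reg1, 55 Reg2, 50 Reg3b and 21 Reg3g UMIs, the Reg2 UMIs in 1 cell. Reg1 was uniform over the classes: per 1000 cells it stood at 165 in beta-like and 168 in endothelial-like cells of the CCR2-DTR 6-month library, and at 20.2 and 19.0 in those of the WT 1-month library. Reg3a had 2 UMIs and Reg3d 17 over the 7 classes of the 4 libraries.

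Enzyme RNA in endothelial-like cells differed strongly between libraries. The deposited counts cover only barcodes called as cells, so whether this was free RNA was not tested. Among endothelial-like cells at 6 months, the enzyme members had 6.02 UMIs per cell in CCR2-DTR and 0.660 in WT, a ratio of 9.11 (7.90 to 10.6). At 1 month they had 1.85 in the CCR2-DTR library and 0.0822 in the WT library, a ratio of 22.5 (17.0 to 30.3). Within genotypes, 6 months over 1 month gave 3.26 (3.04 to 3.50) in CCR2-DTR and 8.04 (5.91 to 11.1) in WT. With 1 library per group these differences were not tested, and isolation and genotype cannot be told apart.

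The difference was also read gene by gene, as a description, since the genes share a library and are not independent. Of 19 members with at least 10 UMIs over both 6-month libraries, 19 were at least 2-fold higher in CPM in CCR2-DTR endothelial-like cells with an interval above equality, against 1.32% of all genes, with a median ratio of 9.71 (range 5.69 to 17.2). At 1 month it was 19 of 19, against 2.27% of all genes, with a median of 15.1 (range 4.50 to 103). There the WT endothelial-like cells held 52 enzyme UMIs and the CCR2-DTR ones 1211. Members thus reached 10 UMIs mainly through the library where they were high, which favours higher calls. For 6 months over 1 month it was 16 of 19 in CCR2-DTR (1.73% of all genes) and 9 of 12 in WT (2.13%). No member was called lower, against 1.09% and 0.623% of all genes for genotype at 6 months and at 1 month, and 5.12% and 3.44% for age in CCR2-DTR and in WT. Ctrb1, for example, had 387 UMIs in the CCR2-DTR 6-month and 58 in the WT 6-month endothelial-like cells, and 267 in the CCR2-DTR 1-month and 7 in the WT 1-month cells. The size of the ratio depended on the class: in macrophage-like cells the genotype ratios were 5.57 at 6 months and 7.70 at 1 month, and in beta-like cells 8.52 and 16.3. The ratios of 6 months over 1 month were 1.46 in CCR2-DTR and 2.02 in WT in macrophage-like cells, and 2.97 and 5.66 in beta-like cells.

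**Figure D5:**
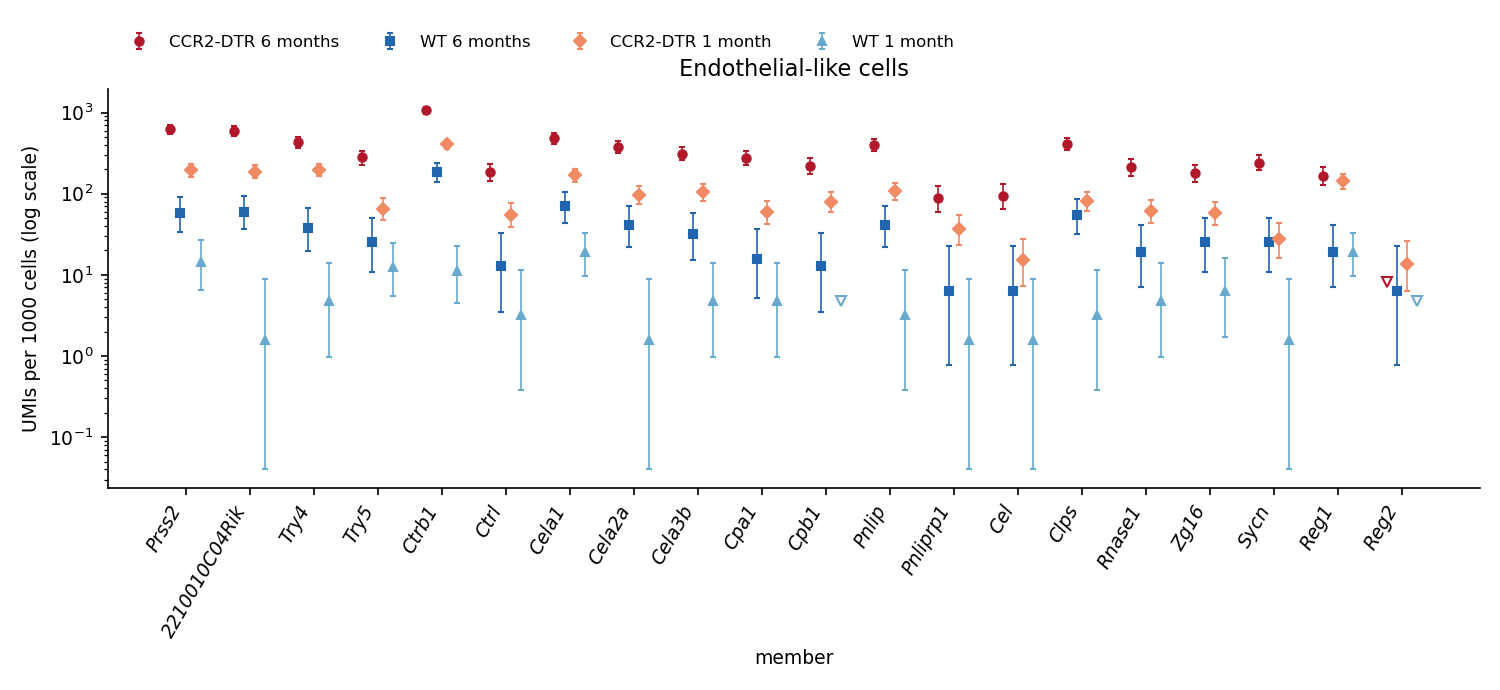
UMIs per 1000 endothelial-like cells (log scale) of the members with at least 10 UMIs over the 4 libraries, with exact Poisson 95% intervals. Open triangles pointing down mark the limit that a count of 0 allows (3 counts). The CCR2-DTR 6-month library is highest and the WT 1-month library lowest or at 0 for the enzyme members.

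The makeup of the members' RNA in the classes was not the same in each library. Summed over the 6 classes without delta-like cells and set against the other enzyme members, Sycn was 2.42 times as high at 6 months as at 1 month in CCR2-DTR (2.04 to 2.89) and 3.98 times (1.77 to 10.5) in WT. Cela2a was 1.44 and 2.99 times as high. Reg1 was 0.390 (0.346 to 0.438) and 0.229 (0.155 to 0.332), and Try4, a trypsinogen gene, 0.541 and 0.635, both lower at 6 months relative to the other enzymes. Reg3b was at 0.0421 (0.00101 to 0.265) and 0.0390 (0.000933 to 0.249), from 1 UMI at 6 months and 19 at 1 month in CCR2-DTR and 1 and 17 in WT. The classes of both 6-month libraries thus held relatively more Sycn and Cela2a and relatively less Reg1, Reg3b and Try4. Each had an interval that excludes equality in both genotypes.

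In absolute terms Reg1 stood apart from the enzymes. It had 423 UMIs in the 6 classes of the CCR2-DTR 6-month library and 867 in those of the CCR2-DTR 1-month library, a ratio per cell of 1.11 (0.983 to 1.24), while the enzyme members' ratio was 2.84. In CCR2-DTR, Reg2 had 1 UMI beside 14696 enzyme UMIs at 6 months and 90 beside 11741 at 1 month, a ratio per cell of 0.0252 (0.000631 to 0.144). In WT it had 7 UMIs beside 1276 enzyme UMIs at 6 months and 0 beside 846 at 1 month. Enzyme-rich barcodes differed in the same gene: at 6 months Reg2 had 3 UMIs in the 46 such barcodes of CCR2-DTR and 563 in the 3 of WT.

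Some counts cannot be assigned to 1 gene with certainty. The annotated transcripts of the trypsinogen genes are 78.1% to 97.1% identical, Try4 and Try5 being the closest pair. All 5 lie on chromosome 6 between 41030268 and 41525079 (GRCm38, GENCODE vM21). Amy2a5 is 98.5% to 99.9% identical to 4 neighbouring amylase copies and had 10 UMIs over the 7 classes of the 4 libraries. Ctrc overlaps Cela2a on chromosome 4 and had 18 UMIs. Both lie on the minus strand and share their lowest coordinate, 141814962, which is the 3′ end of each. How such reads were counted was not tested. The elastase transcripts are 68.6% to 74.4% identical, and the 6 Reg genes, 70.9% to 81.5% identical, lie on chromosome 6 between 78370657 and 78468872.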

How the data were processed

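RNA of single islet cells was measured in 4 libraries. UMI counts per gene and barcode were made by the authors with Cell Ranger 5.0.1 on build mm10, per the submitters' processing notes and the file headers. The deposited values are raw counts of barcodes already called as cells, and the deposited gene and barcode lists hold names only. The annotation release is not given in the sources used here.

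Kept were barcodes with 1000 or more UMIs, 500 or more genes and no more than 15% of UMIs from mitochondrial genes. Predicted doublets (Scrublet score over 0.25: 140, 87, 311 and 363 in the CCR2-DTR 6-month, WT 6-month, CCR2-DTR 1-month and WT 1-month libraries) were removed. The rest were clustered with scanpy 1.11.5 under python 3.11.15 (2000 variable genes without the members, the other acinar list and haemoglobin genes, 30 components, 15 neighbours, Leiden resolution 1, leidenalg 0.10.2), which gave 20 clusters. Median UMIs per kept cell were 14700, 12760, 8859 and 11130 in the same order.

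Counts were summed per class and library, so cells were not treated as replicates. Classes were compared over the 4 libraries, which differ in genotype and age, with edgeR 4.0.16 (R 4.3.3), TMM, library as block and Benjamini-Hochberg adjustment, for genes with at least 10 UMIs. DESeq2 1.42.0 was an alternative. With 1 library per group, genotype and age have values and exact conditional intervals, and were not tested. Poisson, Clopper-Pearson and ratio intervals (scipy 1.17.1) are 95% and cover counting error only, and a count of 0 allows up to 3 counts. Fits were checked on simulated counts.

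Members given in full are those higher in an endocrine class, those at least 3 times the endothelial-like value relative to the other enzymes in 1 class of all libraries, and the 6 with most UMIs in the barcodes of at least 20% enzyme UMIs. Other genes and barcodes singled out were chosen after their values were seen. The members and lists were chosen with earlier results of these data known. The Ppy-led cluster was planned as gamma-like, but too few markers set it apart. The result of 1 gene of the other acinar list is not reported here.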

Additional observations from a re-analysis of the deposited data

Results flagged for a closer look

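Some values differed between groups in direction. With 1 library per group, none of these differences was tested. Cela1 per delta-like cell was 0.808 times as high in CCR2-DTR as in WT at 6 months, and 1.13 times as high at 1 month. These ratios were taken without subtracting the endothelial-like level of Cela1, which was higher for CCR2-DTR at both ages. Less that level, the 1-month libraries were close to equal, at 1.327 (CCR2-DTR) and 1.311 (WT) UMIs per cell. The 6-month libraries still differed, at 1.905 (CCR2-DTR) and 2.884 (WT).

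Set against the other enzyme members, in the classes without delta-like cells, 3 members moved oppositely with age in the genotypes. For 6 months over 1 month, Ctrb1 stood at 0.779 in CCR2-DTR and 1.73 in WT. Cpa1 stood at 1.24 in CCR2-DTR and 0.497 in WT. Zg16 stood at 1.19 in CCR2-DTR and 0.192 in WT.

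Barcodes outside the filters held enzyme RNA as well. At 6 months, 47 such barcodes in CCR2-DTR and 2 in WT had at least 20% enzyme UMIs.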

How the results depend on the processing

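Cela1 was higher in delta-like cells in 14 of 14 alternatives (log2 2.32 to 4.48), a description, since the gene was named for this pattern. Clps was called higher in macrophage-like cells in 14 of 14 (log2 0.97 to 2.74, edgeR or DESeq2 adjusted p 9.13e-09 to 0.0369). Try5 was called there in 11 of 14 (log2 0.21 to 1.36, adjusted p 0.00235 to 0.706) and lost on the enzyme-sum scale, with the low-UMI cluster added to beta-like cells (0.91) and without the CCR2-DTR 1-month library. Scaled per cell, 1 member (Rnase1) was higher in alpha-like cells. The 2 members higher in macrophage-like cells became 4 with DESeq2, 5 scaled per cell, 1 scaled to the enzyme sum, 1 with the low-UMI cluster added, 5 without cells of at least 5% enzyme UMIs, 6 against mesenchymal-like cells, and 2 to 7 leaving out 1 library, 7 without CCR2-DTR 6 months. The members lower in delta-like, alpha-like, beta-like and Ppy-led cells numbered 13, 10, 19 and 4 with DESeq2, 6, 3, 11 and 1 without CCR2-DTR 6 months, and 0 in each scaled per cell.

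The enzyme ratio of CCR2-DTR over WT at 6 months was 5.57 in macrophage-like cells and 7.72 over all 7 classes. At 1 month it was 7.70 in macrophage-like cells, 16.3 in beta-like cells and 14.3 over all 7 classes. For 6 months over 1 month in CCR2-DTR it was 1.46 in macrophage-like cells, 2.97 in beta-like cells, 2.62 in CPM, 2.87 without cells of at least 5% enzyme UMIs and 2.84 over all 7 classes. In WT it was 2.02, 5.66 and 5.68 in macrophage-like cells, beta-like cells and CPM, and 5.25 over all 7 classes. The cause of these changes was not tested.

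The 10 enzyme-rich barcodes became 20 at a limit of 10%, 4 at 40%, 60 over all listed barcodes and 6 without Zg16 in the share. No value could be had for an acinar-like cluster, since none was found. The summed classes, the share without Zg16 and the class without Ghrl-led cells were chosen after seeing the data. No paired analysis was possible because the groups compared share fewer than 2 replicate numbers, and the class tests already carry the library as block. Depth limits the 10 members under 100 UMIs.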
